A study of Mus musculus with 12 samples.

Results

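The genes described here are the core of the inflammasome and of the interleukin-1 (IL-1) cytokine family: the sensor Nlrp3, the adaptor Pycard, the protease Casp1, the pore protein Gsdmd, the cytokines Il1b, Il1a, Il18 and Il33, the antagonist Il1rn and the receptor Il1r1. They were chosen by name, with earlier results of these data known, and all 10 are among the 24187 genes of the count table. Bulk RNA sequencing, in which the RNA of all cells of a tissue sample is read together, was performed on the livers of 12 mice of 10 to 12 weeks of age. The control group held 3 mice with no injury and no treatment. The vehicle group held 5 mice injected with acetaminophen (APAP, paracetamol, which kills hepatocytes in overdose) and then PBS, and the hAAM group held 4 mice given APAP and then human alternatively activated macrophages (hAAM), which were grown from blood monocytes of human donors. The mice were of C57BL/6J background, named C57BL6/JOlaHsd for the injury model. The methods give a fast of 12 h before injection of APAP or saline, and whether the sequenced controls were fasted is not stated. The labels give an APAP dose of 350 mg/kg, while the study's severe model used 500 mg/kg; in that model cells or vehicle followed at 16 h and livers were taken at 32 h by the figure legend and 36 h by the methods, and neither was stated for the sequenced livers on their own. The labels number each liver as a replicate of its own, and no human donor, cage or batch is given for them.

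An inflammasome assembles in 2 steps. Priming through toll-like or IL-1 receptors raises transcription of Nlrp3 and Il1b, and a danger signal such as extracellular ATP then makes NLRP3 recruit the adaptor ASC (gene Pycard) and caspase-1, which cuts pro-IL-1β, pro-IL-18 and gasdermin D. IL-1β and IL-1α act through the receptor IL-1R1, IL-1 receptor antagonist (gene Il1rn) occupies that receptor without signalling, and IL-33 is a nuclear alarmin released by dying cells. Processing and release of these proteins are not seen in transcript counts.

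Total counts ranged from 47391650 to 74056505 per liver, and 22581 genes had enough counts to be tested, all 10 of these genes included. Values are given as counts per 1000000 of the TMM-scaled library (CPM), and a gene was called changed at an edgeR false discovery rate (FDR) under 0.05. Hepatocyte markers were high in every liver, with a summed level of 74510 to 114570 CPM, and none of these markers was called in any comparison. Some livers stood apart. Of the 15279 genes that averaged 0 or more on the log2 CPM scale, 53 were at least 4-fold higher in control replicate 1 than in both other controls, against 5 for either of the others. Vehicle replicate 3 and hAAM replicate 4, which carry different labels, were nearly alike: their counts differed by 1.19 times counting noise in the median gene, and the next closest pair of livers by 2.61 times. Whether this pair comes from separate mice was not tested, and the group sizes of 5 vehicle and 4 hAAM livers count both. Results that rest on control replicate 1 or on this pair are given with and without them.

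In control livers, Il1r1 had the highest level per kilobase of exon (39.1 ± 6.45 CPM per kb, SD, n = 3), followed by Gsdmd (14.3 ± 2.50) and Il18 (5.28 ± 0.664). The other 7 genes lay between 4.91 CPM per kb (Il1b) and 0.678 (Pycard), with spreads that overlapped between most neighbours. In vehicle livers the same 3 genes led, at 13.9 ± 1.10 for Il1r1, 11.98 ± 1.27 for Gsdmd and 4.31 ± 0.894 for Il18 (SD, n = 5). The lower 7 ran there from 1.67 CPM per kb for Casp1 to 0.852 for Il33, a range in which neighbours did not differ beyond their spread, and Il1r1 and Gsdmd also lay within their spread of each other. In hAAM livers the order began in the same way, and the lower 7 ran from 1.85 CPM per kb for Il1rn to 0.749 for Il33. The merged exons of Pycard (3800 bases) and Il1rn (5535 bases) include long annotated variants, which lowers their level per kb.

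**Figure D1:**
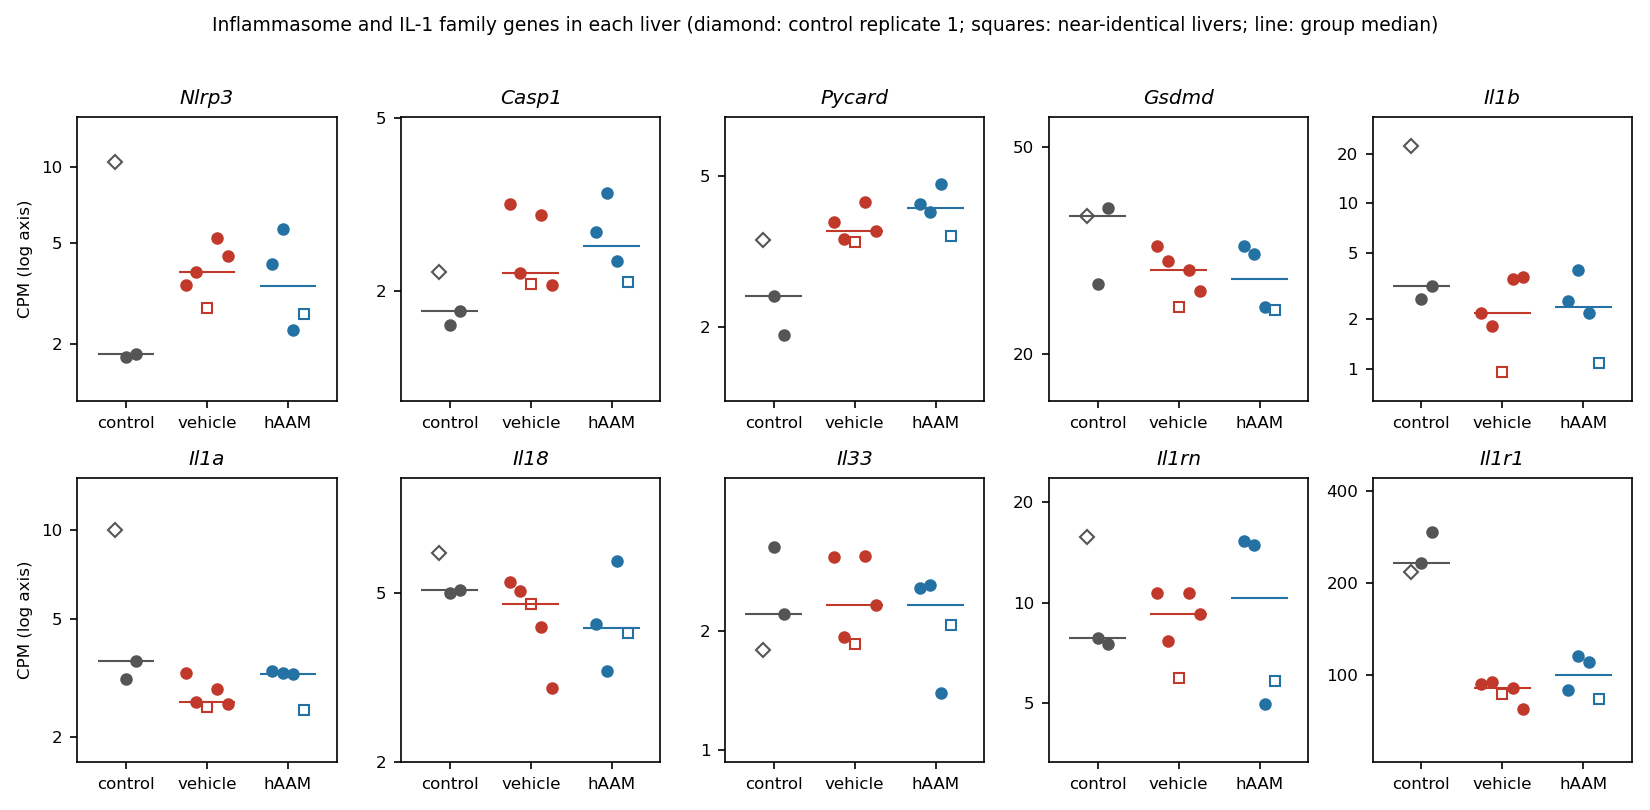
CPM of each of the 10 genes on a log axis in every liver of the control (n = 3), vehicle (n = 5) and hAAM (n = 4) groups; horizontal lines are group medians, the diamond is control replicate 1 and the squares are the near-identical livers. Il1r1 lies between 218 and 295 CPM in control livers and between 77.3 and 116 CPM in injured livers, while Nlrp3, Il1b and Il1a each have their highest value in control replicate 1.

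After APAP and vehicle, 4 of the 10 genes were called against control, against 29.8% of all genes tested, so their share was near the background. Il1r1, Il1b and Il1a were lower (3 of 10, with 14.8% of all genes lower) and Pycard was higher (1 of 10, with 15.0% of all genes higher). Il1b and Il1a were no longer called once control replicate 1 was left out. After APAP and hAAM, Il1r1 was lower and Pycard higher than in control, 2 of 10 genes against 20.7% of all genes (9.96% lower and 10.7% higher). The median log2 fold change of the 10 genes was −0.25 in vehicle and −0.30 in hAAM livers, against 0.01 and 0.02 over all genes. Both comparisons use the same 3 control livers.

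Il1r1 encodes the receptor through which IL-1α and IL-1β signal. It is on chromosome 1 of GRCm38 (40225080 to 40317257, plus strand). Its level was 218, 233 and 295 CPM in the control livers. In vehicle livers it was 93.3, 94.7, 86.4, 90.6 and 77.3 CPM, and in hAAM livers 89.0, 116, 110.0 and 83.5 CPM. Every injured liver was below every control liver, a separation that 34.8% of all genes showed for vehicle and 28.5% for hAAM. The log2 fold change was −1.49 in vehicle livers (SE 0.128, FDR 4.2e-05), to 0.356 of the control level, and −1.32 in hAAM livers (SE 0.136, FDR 0.000188), to 0.400 of it. It was called in all 12 fits that left out 1 liver each, in both comparisons, with a log2 fold change between −1.58 and −1.35 for vehicle and between −1.40 and −1.18 for hAAM. In a bulk sample, fewer cells of a type and less RNA per cell cannot be told apart. Markers of sinusoidal endothelium summed to a median of 275.0 CPM in control, 314.6 in vehicle and 291.2 in hAAM livers. Those of stellate cells summed to 265.9, 285.9 and 298.2 CPM. In vehicle livers 2 of 5 markers of each list were called higher, against 15.0% of all genes. In hAAM livers 1 and 2 of 5 were called higher, against 10.7% of all genes. No marker of these lists or of hepatocytes was called lower. The part of any cell type in the fall of Il1r1 was not tested.

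Il1b encodes pro-IL-1β, the cytokine whose release depends on caspase-1. It is on chromosome 2 (129364570 to 129371139, minus strand). Its level was 22.3, 2.63 and 3.18 CPM in control replicates 1, 2 and 3, which correspond to 1170, 167 and 161 counts. It was 2.17, 1.81, 0.949, 3.504 and 3.59 CPM in vehicle livers and 2.55, 3.96, 2.17 and 1.08 CPM in hAAM livers. Control replicate 1 was thus above every other liver, and the other 2 controls lay inside the range of the injured livers. With all livers the log2 fold change was −1.95 in vehicle (SE 0.650, FDR 0.0397) and −1.94 in hAAM livers (SE 0.698, FDR 0.0683). Without control replicate 1 it was −0.26 (FDR 0.735) and −0.25 (FDR 0.784). Without the near-identical livers it was −1.75 in vehicle (FDR 0.0675), and the lowest level of either injured group was in one of these, 0.949 CPM in vehicle replicate 3 and 1.08 CPM in hAAM replicate 4.

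Il1a encodes IL-1α, an alarmin that is active without cleavage by caspase-1, and neighbours Il1b on chromosome 2 (129299610 to 129309972, minus strand). It followed the same pattern with 9.99, 3.13 and 3.62 CPM in control livers. It was 3.29, 2.63, 2.54, 2.91 and 2.59 CPM in vehicle livers and 3.35, 3.30, 3.25 and 2.46 CPM in hAAM livers. All 9 injured livers were below the control median of 3.62 CPM, and 4 of the 5 vehicle livers were below every control. The log2 fold change was −0.997 in vehicle (SE 0.304, FDR 0.0277) and −0.85 in hAAM livers (SE 0.322, FDR 0.0809), and without control replicate 1 it was −0.27 (FDR 0.243) and −0.12 (FDR 0.658). Without the near-identical livers the vehicle value was −0.96 (FDR 0.0566). Its exons share 222 bases with Gm14023 on the other strand, and those of Il1b 25 bases with Il1bos, so that with an unstated strand setting their reads cannot be told apart there.

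Nlrp3, the sensor of the inflammasome, is on chromosome 11 (59541568 to 59566956, plus strand). It stood at 10.5, 1.78 and 1.82 CPM in the control livers. It was 3.41, 3.83, 2.77, 5.25 and 4.42 CPM in vehicle livers and 4.12, 5.69, 2.27 and 2.61 CPM in hAAM livers. Each of the 9 injured livers was above control replicates 2 and 3 and below control replicate 1. With all livers Nlrp3 was not called, at a log2 fold change of −0.25 in vehicle (SE 0.523, FDR 0.752) and −0.35 in hAAM livers (SE 0.550, FDR 0.689). Without control replicate 1 the sign turned: the log2 fold change was 1.13 in vehicle (FDR 0.0428) and 1.03 in hAAM livers (FDR 0.0813). With the near-identical livers left out as well it was 1.24 (FDR 0.0272) and 1.17 (FDR 0.0529).

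Pycard, the adaptor that joins sensor and caspase, is on chromosome 7 (127989708 to 127993867, minus strand). Its level was 3.39, 2.42 and 1.92 CPM in control livers. It was 3.80, 3.41, 3.35, 4.29 and 3.59 CPM in vehicle livers and 4.24, 4.04, 4.78 and 3.49 CPM in hAAM livers. All hAAM livers and 4 of the 5 vehicle livers were above every control. The log2 fold change was 0.52 in vehicle (SE 0.177, FDR 0.0440) and 0.68 in hAAM livers (SE 0.185, FDR 0.0233), and without control replicate 1 it was 0.76 (FDR 0.00991) and 0.93 (FDR 0.00735). It was called in 4 of the 12 fits that left out 1 liver in vehicle and in 9 of 12 in hAAM livers. Its exons share 485 bases with Gm45205 on the other strand, and since the strand setting of the counting is not stated, reads of the pair cannot be told apart.

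Casp1, the protease itself (chromosome 9, 5298517 to 5307265, plus strand), was 2.21, 1.67 and 1.80 CPM in control livers. It was 3.17, 2.19, 2.07, 2.99 and 2.06 CPM in vehicle livers and 2.72, 3.35, 2.34 and 2.09 CPM in hAAM livers. All 9 injured livers were above the control median of 1.80 CPM, and the groups overlapped. The log2 fold change of 0.40 in vehicle (SE 0.206, FDR 0.161) and 0.47 in hAAM livers (SE 0.215, FDR 0.136) did not pass the test. Casp1 did pass when counts were scaled by library size alone (0.75, FDR 0.0261, and 0.79, FDR 0.0331). That scaling called 8637 of all genes higher and 1110 lower in vehicle livers, and 6559 and 781 in hAAM livers. Gsdmd, whose product forms the membrane pore of pyroptosis (chromosome 15, 75862327 to 75867408, plus strand), was 36.8, 27.2 and 38.1 CPM in control livers. It was 32.2, 30.1, 24.6, 29.1 and 26.4 CPM in vehicle and 32.3, 31.1, 24.7 and 24.3 CPM in hAAM livers. Its log2 fold change was −0.26 (SE 0.135, FDR 0.169) and −0.28 (SE 0.142, FDR 0.184), and neither passed the test. In vehicle livers it was called in 1 of the 12 fits that left out 1 liver, at −0.40 without control replicate 2 (FDR 0.0486), and by library size alone the log2 fold changes were 0.09 (FDR 0.668) and 0.04 (FDR 0.880).

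Markers of monocyte-derived macrophages, cells that enter the injured liver and use the inflammasome, moved with the injury. Their summed level over 7 genes was 87.2, 70.4 and 84.3 CPM in control livers, 290.1, 193.3, 141.4, 455.4 and 209.5 CPM in vehicle livers and 478.2, 436.7, 229.9 and 140.8 CPM in hAAM livers. 5 of the 7 were called higher in each injured group, against 15.0% of all genes in vehicle and 10.7% in hAAM livers. The near-identical livers were the lowest of their groups by these markers. Control replicate 1, with the highest Nlrp3 level of all livers, was at 87.2 CPM, below every injured liver. Neutrophil markers (6 genes) summed to 29.2, 11.01 and 7.09 CPM in control replicates 1, 2 and 3, to 11.4 to 46.5 CPM in vehicle and to 12.3 to 42.3 CPM in hAAM livers, and none was called. No marker of either list was at 0 in any liver. The part of these cells in the values of Nlrp3, Pycard, Casp1 and Il1b was not tested.

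Il18 encodes a caspase-1 substrate that induces interferon-γ (chromosome 9, 50554827 to 50581840, plus strand). It was 6.23, 5.00 and 5.10 CPM in control livers. It was 5.32, 5.05, 4.70, 4.15 and 2.99 CPM in vehicle livers and 4.24, 3.28, 5.96 and 4.03 CPM in hAAM livers. The groups overlapped, and the log2 fold change of −0.29 in vehicle (SE 0.207, FDR 0.307) and −0.31 in hAAM livers (SE 0.218, FDR 0.330) did not pass the test. Il33 (chromosome 19, 29925114 to 29960718, plus strand) was 1.79, 3.26 and 2.21 CPM in control livers. It was 3.08, 1.93, 1.86, 3.10 and 2.32 CPM in vehicle and 2.57, 2.61, 1.39 and 2.07 CPM in hAAM livers. The log2 fold change of this alarmin was 0.02 (SE 0.263, 95% interval −0.55 to 0.59, FDR 0.960) and −0.16 (SE 0.276, 95% interval −0.76 to 0.43, FDR 0.708), and −0.15 (FDR 0.733) and −0.34 (FDR 0.472) without control replicate 1.

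Il1rn, the gene of the receptor antagonist, is on chromosome 2 (24336853 to 24351494, plus strand). It was 15.8, 7.85 and 7.51 CPM in control livers. It was 10.7, 7.68, 5.96, 10.7 and 9.26 CPM in vehicle livers and 15.3, 14.9, 5.00 and 5.82 CPM in hAAM livers. Within the hAAM group, replicates 1 and 2 were above all vehicle livers and replicates 3 and 4 below all of them. The log2 fold change was −0.23 in vehicle (SE 0.386, FDR 0.693) and −0.02 in hAAM livers (SE 0.406, FDR 0.983), and neither passed the test. Both signs turned without control replicate 1, to 0.21 (FDR 0.750) and 0.42 (FDR 0.547), and the hAAM value was 0.18 (FDR 0.786) without the near-identical livers. The ratio of Il1rn to Il1b within a liver sets the antagonist against an agonist of the same receptor. Its log2 value was −0.50, 1.57 and 1.23 in the control livers, 1.98 ± 0.51 in vehicle (SD, n = 5, range 1.36 to 2.61) and 2.01 ± 0.62 in hAAM livers (SD, n = 4, range 1.19 to 2.57). Il1b had more counts than Il1rn in control replicate 1, where the count ratio was 0.707, and in no other liver, and the injured groups overlapped the other controls.

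**Figure D2:**
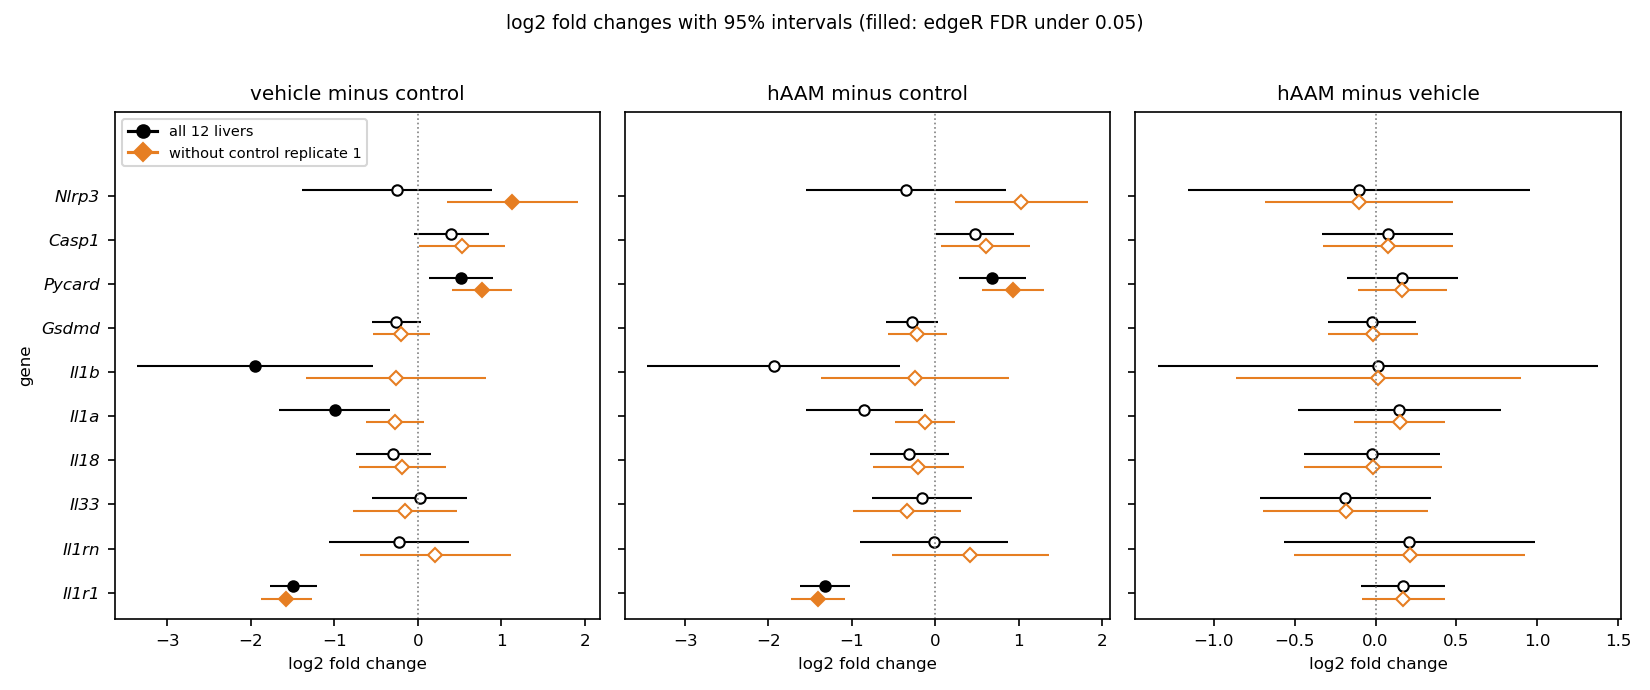
log2 fold change of each gene with its 95% interval in 3 comparisons, with all 12 livers (circles) and without control replicate 1 (diamonds); filled symbols have an edgeR FDR under 0.05, and the right panel has a narrower axis. Against control, Il1r1 keeps its place near −1.5 in vehicle livers, Nlrp3 goes from −0.25 to 1.13 without control replicate 1 and Il1b from −1.95 to −0.26, and in hAAM minus vehicle every interval includes 0.

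The comparison of hAAM with vehicle livers asked whether the injected cells changed this system in injured livers. None of the 10 genes was called by edgeR (0 of 22581 genes, 0% of all genes tested), none had an unadjusted p under 0.05 (5.02% of all genes, or 1133), and none was called by DESeq2, which called 1 of all genes. The log2 fold changes were 0.17 for Il1r1 (SE 0.120, 95% interval −0.09 to 0.43), 0.16 for Pycard (SE 0.158, −0.18 to 0.51), 0.07 for Casp1 (SE 0.185, −0.33 to 0.48) and −0.02 for Gsdmd (SE 0.125, −0.29 to 0.25), so changes of more than 2-fold lay outside these intervals. Among the ligands they were 0.15 for Il1a (−0.48 to 0.77), −0.02 for Il18 (−0.44 to 0.40) and −0.19 for Il33 (−0.71 to 0.34). The intervals of Il1b (0.02, −1.35 to 1.38), Nlrp3 (−0.10, −1.16 to 0.96) and Il1rn (0.21, −0.56 to 0.98) were the widest of the 10. Control replicate 1 is in neither group of this comparison but shares the fit, and without it the intervals were −0.86 to 0.90 for Il1b and −0.68 to 0.48 for Nlrp3. The near-identical livers sit on opposite sides of this comparison, and without them the intervals were −1.43 to 1.55 for Il1b, −1.36 to 1.21 for Nlrp3 and −0.54 to 1.11 for Il1rn, and Il1r1 was at 0.23 (−0.07 to 0.53). No gene of the 10 had hAAM and vehicle livers apart without overlap, which 1.40% of all genes did.

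Control replicate 1 was compared with the mean of the other controls. In it, 4 of the 10 genes were at least 2-fold higher, against 354 of 15279 genes (2.32%). They were Il1b at 7.68-fold, Nlrp3 at 5.83-fold, Il1a at 2.96-fold and Il1rn at 2.05-fold, and all other members of the set were below 2-fold. In the list of receptor signalling genes, 7 of 22 were below that mean and 5 (22.7%) at least 2-fold higher, among them Tnfaip3, a brake on NF-κB (9.45-fold), and Nfkbia, which encodes the inhibitor IκBα (4.89-fold). In the other lists 3 of 13 priming and trigger genes, 2 of 17 sensors, caspases and pore proteins, 2 of 7 receptors, decoys and binding proteins and the 1 ligand gene were at least 2-fold higher, while 4, 9, 3 and 0 of them were below the mean of the other controls, among them Naip1 at 0.517 and P2rx7 at 0.580 of it. At the upper end Il1f9, the gene of the ligand IL-36γ, was 8.48-fold, the guanylate-binding protein gene Gbp5 8.22-fold, the pyrin gene Mefv 6.09-fold and Tlr2 5.51-fold higher. The fold of Il1f9 rests on few counts, at 0.0988 and 0.220 CPM in the other controls, and its mean level is too low for the 15279 genes. Il1r1 was 0.826 of the mean of the other controls. Of the 10 summed marker lists, this liver was the highest of the controls in 7, neutrophil markers among them, and the lowest in 1, Kupffer cell markers (186.9 CPM against 221.9 and 267.3). These folds compare 1 liver with 2 others and carry no test, and Tnfaip3, Nfkbia, Gbp5, Mefv and Naip1 were named after their values were seen.

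**Figure D3:**
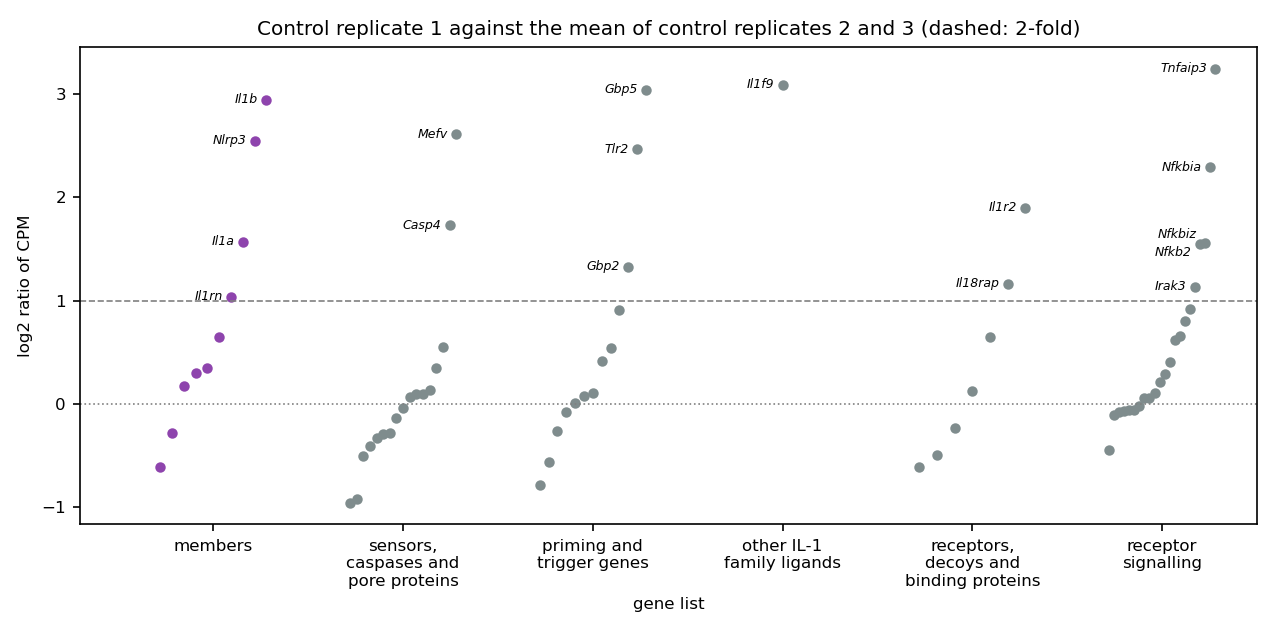
log2 ratio of CPM in control replicate 1 to the mean of control replicates 2 and 3, for the 10 genes (members) and for the tested genes of each pathway list; the dashed line marks 2-fold and genes above it are named. Il1b (7.68-fold) and Nlrp3 (5.83-fold) lead the 10 genes, and Tnfaip3 (9.45-fold) is the highest of all those shown.

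The promoters of Nlrp3, Il1b and Il1a, the 3 members with the highest folds in that liver, and of Il1r1, which was below the other controls' mean, are shown to set their letters side by side. Each run is the 250 bases before a RefSeq start site in GRCm38.p6, written 5′ to 3′ on the gene's strand, and capitals mark matches to a κB consensus, to the AP-1 motif TGANTCA or to the C/EBP motif TTNNGNAA, each searched on both strands.
Nlrp3, chr11:59541319-59541568, plus strand: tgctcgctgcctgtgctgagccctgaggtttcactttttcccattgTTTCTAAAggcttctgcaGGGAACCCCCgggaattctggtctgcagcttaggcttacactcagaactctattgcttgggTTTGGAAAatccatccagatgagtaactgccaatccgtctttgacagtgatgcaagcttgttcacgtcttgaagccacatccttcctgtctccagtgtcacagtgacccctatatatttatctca
Il1b, chr2:129371140-129371389, minus strand: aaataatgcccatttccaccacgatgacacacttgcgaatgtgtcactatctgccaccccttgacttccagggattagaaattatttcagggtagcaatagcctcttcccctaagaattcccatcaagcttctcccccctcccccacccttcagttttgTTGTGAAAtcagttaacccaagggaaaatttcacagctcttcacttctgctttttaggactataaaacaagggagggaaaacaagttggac
Il1a, chr2:129309973-129310222, minus strand: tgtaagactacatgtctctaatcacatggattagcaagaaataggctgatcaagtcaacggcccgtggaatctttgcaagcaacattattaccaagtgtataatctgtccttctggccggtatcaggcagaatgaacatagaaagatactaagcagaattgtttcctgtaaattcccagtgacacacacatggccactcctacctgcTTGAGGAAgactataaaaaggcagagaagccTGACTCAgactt
Il1r1, chr1:40224830-40225079, plus strand: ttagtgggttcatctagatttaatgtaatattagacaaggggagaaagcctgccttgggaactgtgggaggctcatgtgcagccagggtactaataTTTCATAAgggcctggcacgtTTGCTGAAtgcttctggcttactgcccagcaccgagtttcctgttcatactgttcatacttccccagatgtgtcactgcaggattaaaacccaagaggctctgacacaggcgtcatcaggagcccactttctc
The Nlrp3 window holds a κB match from −186 to −177 and 2 C/EBP matches. The Il1a window holds an AP-1 match from −12 to −6 and a C/EBP match from −43 to −36, the Il1b window a C/EBP match from −91 to −84, and this Il1r1 window 2 C/EBP matches. A second Nlrp3 start, at chr11:59542436-59542685, has no κB match and 1 C/EBP match. Il1rn, the fourth member at least 2-fold higher in that liver, has 3 windows that are not printed, with no κB match in any, an AP-1 match from −141 to −135 in 1 and C/EBP matches in the other two. A second Il1r1 start has a κB match from −232 to −223, which overlaps a C/EBP match. Of 32841 windows of this length, 7.25% held a κB match, 6.75% an AP-1 match and 36.9% a C/EBP match. Windows were found for 9 of the 10 genes, and a match is a run of letters in the window, not a measured site.

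The other genes of the pathway were taken from lists of 67 genes, of which 62 are in the table and 60 were tested. In vehicle livers 30 of the 60 were called (11 higher and 19 lower), and in hAAM livers 29 (11 higher and 18 lower), against 29.8% and 20.7% of all genes. With control replicate 1 left out there were 18 calls (7 higher and 11 lower) in vehicle and 13 (4 higher and 9 lower) in hAAM livers, against 21.5% and 13.1% of all genes. Of all genes, 15.0% were higher and 14.8% lower in vehicle livers, and 10.7% and 9.96% in hAAM livers. Among the sensors, caspases and pore proteins, 6 of 17 were higher and 3 lower in vehicle livers, and 6 higher and 2 lower in hAAM livers, while by library size alone 10 and 9 were higher and none lower. Without control replicate 1, 3 were higher and 1 lower in vehicle livers, and 2 higher and 0 lower in hAAM livers. Aim2, a sensor of cytosolic DNA, had a log2 fold change of 1.06 (SE 0.233, FDR 0.00599) and Naip2, a sensor of bacterial secretion systems whose reads may be shared with its close paralogs, of 0.67 (SE 0.155, FDR 0.00809), both in vehicle livers. Ninj1, which ruptures the membrane late in lytic death, was lower at −0.47 (SE 0.113, FDR 0.0099), as was the sensor gene Nlrp6 at −0.82 (SE 0.233, FDR 0.0209), whose value without control replicate 1 was −0.78 (FDR 0.0632). The noncanonical caspase gene Casp4 (−0.74, FDR 0.157, and a log2 fold change of 0.08 with an FDR of 0.867 without control replicate 1) and the sensor gene Nlrc4 (0.48, FDR 0.133) did not pass the test.

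Among the priming and trigger genes, 5 of 13 were higher and 2 lower in each injured group, beside the same shares of all genes. With control replicate 1 left out, 4 were higher and 1 lower in vehicle livers and 2 higher and 1 lower in hAAM livers, and by library size alone 8 were higher and 2 lower in vehicle and 5 and 2 in hAAM livers. In vehicle livers the DNA receptor gene Tlr9 had a log2 fold change of 1.33 (SE 0.265, FDR 0.00362) and the ATP-gated channel gene P2rx7 of 1.07 (SE 0.218, FDR 0.00403), while Tlr2 was at −2.75 (SE 0.495, FDR 0.00219). Tlr2 was still lower without control replicate 1, at −1.43 (FDR 0.00536). Nek7, whose product binds NLRP3 (0.06, FDR 0.667), and Txnip (0.39, FDR 0.279, with a log2 fold change of 0.06 without vehicle replicate 5) did not pass the test.

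The genes between receptor and NF-κB formed the list with the most calls in one direction. In vehicle livers 13 of 22 were lower and 0 higher, against 14.8% of all genes lower. In hAAM livers 14 were lower and 0 higher, against 9.96% of all genes lower. Its median log2 fold change was −0.36 in vehicle and −0.43 in hAAM livers, against 0.01 and 0.02 over all genes. In vehicle livers Myd88, the adaptor of IL-1 and toll-like receptors, was at −1.003 (SE 0.195, FDR 0.0032), Tab2 at −0.67 (SE 0.113, FDR 0.0016), the kinase gene Chuk at −0.65 (SE 0.110, FDR 0.0016), the NF-κB subunit gene Rela at −0.57 (SE 0.108, FDR 0.00276) and Nfkbiz, a nuclear IκB protein gene, at −1.35 (SE 0.281, FDR 0.00469). Peli1 was at −0.04 (FDR 0.821). Without control replicate 1, 9 of the 22 were called lower in vehicle livers and 8 in hAAM livers, with none higher. Of all genes, 4970 were then called in vehicle livers, 2429 of them lower, and 3027 in hAAM livers, 1511 of them lower. Myd88 and Nfkbiz were then each at −0.63 in vehicle livers. Scaling by library size alone moved the median of all genes to 0.36 in vehicle and 0.32 in hAAM livers. The list then split into 6 higher and 6 lower genes in vehicle livers and 2 higher and 5 lower in hAAM livers. Over all genes that scaling turned the split in vehicle livers from 3380 higher and 3339 lower to 8637 higher and 1110 lower, and in hAAM livers from 2418 and 2248 to 6559 and 781. In vehicle livers 21 of the 22 genes were below the median of all genes. Either scaling gave this number, but scaling shifts all genes nearly alike, so the second adds no support.

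Of the partners of Il1r1, the coreceptor gene Il1rap had a log2 fold change of −0.68 in vehicle livers (SE 0.229, FDR 0.0417), which was −0.64 without control replicate 1 (FDR 0.114). It was the only call among the 7 receptors, decoys and binding proteins tested, with none in hAAM livers. The decoy receptor gene Il1r2 was at 2.35 with a wide error (SE 0.993, FDR 0.0935), with 3.24 without control replicate 1 (FDR 0.0895) and 1.99 without control replicate 3, at 0.138 to 0.667 CPM in control and 0.387 to 3.03 CPM in vehicle livers. The IL-18 receptor genes Il18r1 (0.26, FDR 0.700) and Il18rap (1.26, FDR 0.0834), the IL-18 binding protein gene Il18bp (−0.26, FDR 0.250) and the inhibitory receptor gene Sigirr (−0.16, FDR 0.365) did not pass the test. The IL-33 receptor gene Il1rl1 had 1 to 12 counts per liver and was not tested, and Il1f9 was at −0.13 with an SE of 0.714 (FDR 0.909), and at 1.61 without control replicate 1 (FDR 0.123). Between hAAM and vehicle livers 0 of the 60 genes were called by edgeR, 0 by DESeq2 and 0 had an unadjusted p under 0.05.

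**Figure D4:**
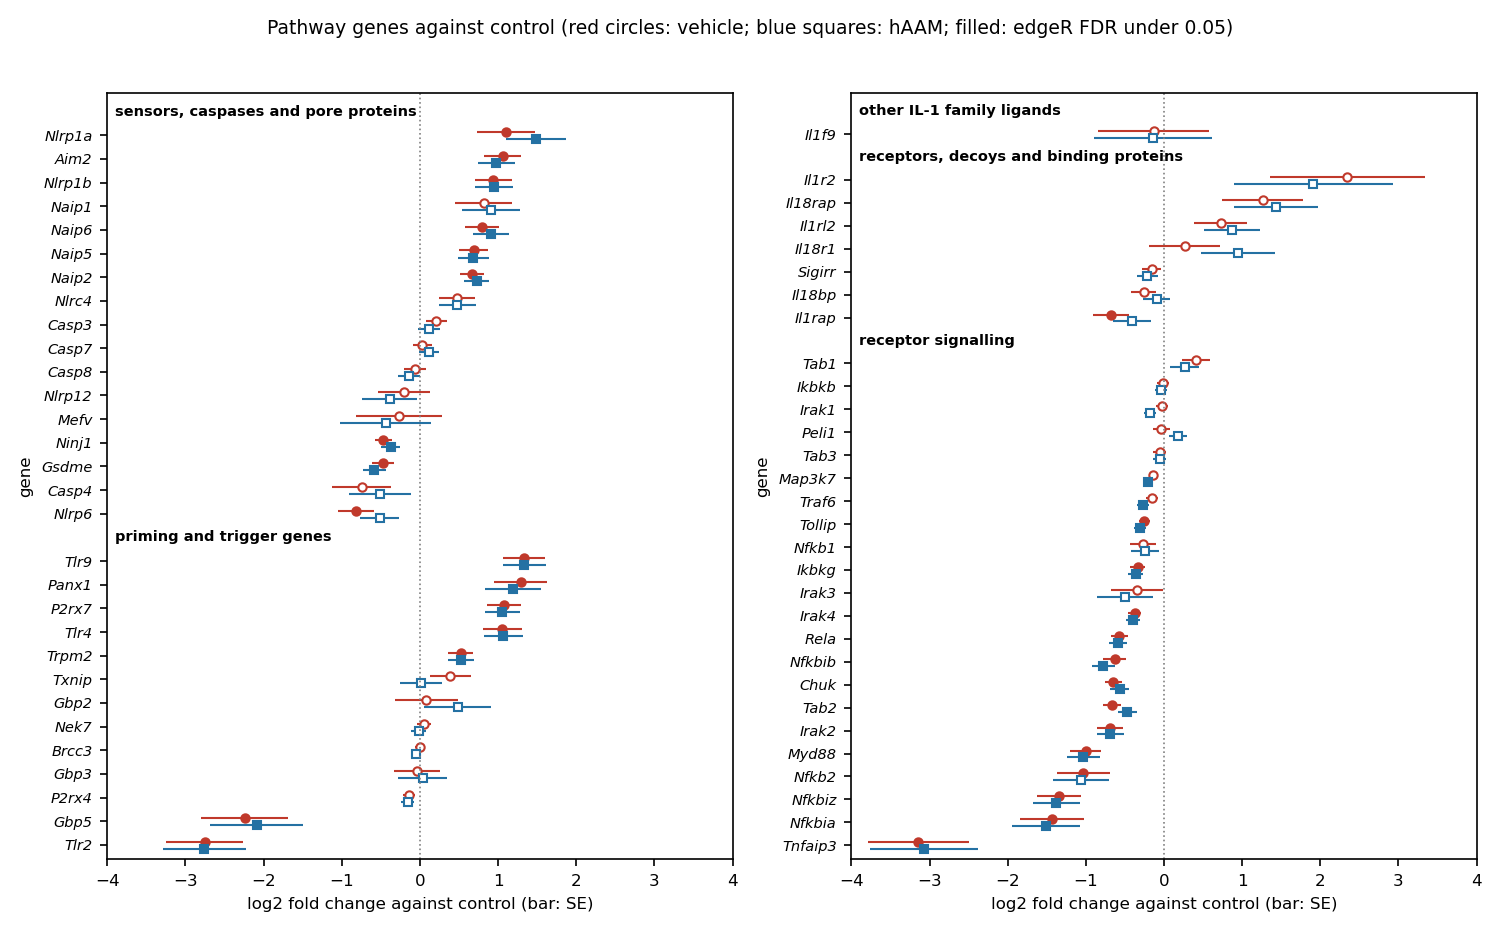
log2 fold change against control with its standard error for the 60 tested pathway genes, by list, in vehicle (red circles) and hAAM livers (blue squares), which share the 3 controls; filled symbols have an edgeR FDR under 0.05. The receptor signalling genes lie mostly left of 0 (13 lower in vehicle, 14 in hAAM, against 14.8% and 9.96% of all genes). Tnfaip3 and Tlr2 are the farthest left, and control replicate 1 was 9.45-fold and 5.51-fold above the mean of the other controls for them.

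Over the 12 livers, the genes whose log2 CPM was most like that of a given gene were named as a description, since all values of a liver share its library and the high values of control replicate 1 enter several of them. Il1r1 was closest to Susd6 (Pearson r = 0.986) and Pid1 (0.979). Il1b was closest to Fosl2 (0.938) and Pou2f2 (0.928), Il1a to Gem (0.972) and Birc3 (0.956), and Nlrp3 to Samsn1 (0.965) and Gja1 (0.956). Casp1 was closest to Pik3cd (0.949), Pycard to Rpl3 (0.949), Gsdmd to Ppp4c (0.932), Il18 to Mpv17l (0.933), Il33 to Ppil1 (0.933) and Il1rn to Snrpb (0.965). With each liver taken as its deviation from the group mean, Nlrp3 was closest to the chemokine gene Cxcl2 (0.987) and Il1b to Ralgds (0.968), and among the 10 genes Nlrp3 and Il1b had r = 0.920.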

How the data were processed

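RNA of 12 frozen liver samples was rRNA-depleted and sequenced from directional libraries. The authors trimmed reads with cutadapt 4.6, aligned them with STAR 2.7.1a to GRCm38 and counted them with summarizeOverlaps (mode and strand setting not given in the sources used here); the deposited values are raw counts, not normalized. The tool versions are from the submitters' processing notes. Symbols and coordinates came from GENCODE M21 (59 genes without a symbol).

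The 10 genes and the lists were chosen with earlier results of these data known. Named were these genes, the 3 genes per list with the smallest p in vehicle minus control, the 1 with the smallest p in hAAM minus vehicle, and genes named by role. R 4.3.3 with edgeR 4.0.16 was used: filterByExpr by group, TMM, 1 quasi-likelihood fit of all 12 livers, two-sided tests, Benjamini-Hochberg FDR over 22581 genes (biological coefficient of variation 0.214), log2 CPM with a prior count of 2. DESeq2 1.42.0, other scalings and filters, a replicate block and leaving out livers were alternatives; both near-identical livers and control replicate 1 together were left out after seeing the data. The fit was tested on simulated data. Genes with few counts, such as Il1f9 (5 counts in 1 liver), carry more counting error. Gsdmc, Il36a, Il36b, Il36rn and Il1f10 were not analysed here. Nlrp10 was too low to test.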

Additional observations from a re-analysis of the deposited data

Results flagged for a closer look

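In groups of 4 or 5 livers, each gene named was examined for 1 liver far from the others, in 70 examinations of which chance picks out about 1 in 20. Among the 10 genes, Il1a was picked out: hAAM replicate 4, of the near-identical pair, was at a log2 CPM of 1.32, and the other hAAM livers at 1.72 to 1.76. P2rx7 was at 3.44 in the same liver, with 2.88 to 2.96 in the others. Il18r1 was at 0.41 in hAAM replicate 2, with −1.11 to −0.89 in the others, and Nfkbiz at 4.70 in hAAM replicate 3, with 4.44 to 4.45 in the others. Txnip was at 6.38 in vehicle replicate 5, with 5.11 to 5.22 in the others. The control group, with 3 livers, was not examined in this way.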

How the results depend on the processing

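The fall of Il1r1 kept its direction and its call under every alternative run in both comparisons with control, and no alternative called any of the 10 genes between hAAM and vehicle livers. The calls of Il1b, Il1a and Pycard did not hold under all of them: in vehicle minus control Pycard had an FDR of 0.0507 with DESeq2's size factors in edgeR, and by library size alone Il1b had 0.0681 and Il1a 0.111. With 3 controls, 1 liver decides calls, and whether reads of the human cells were counted under mouse genes was not tested.

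Members called in vehicle minus control (4) were 2 without both near-identical livers, 1 with only the groups compared and 1 with the replicate block, and 1 to 4 when 1 liver was left out. In hAAM minus control (2) they were 4 with DESeq2 (Il1b at FDR 0.0459 and Il1a at 0.0475 added), 1 with only the groups compared, 1 with the replicate block, and 1 to 3 with 1 liver left out. Pathway list genes called were 30 in vehicle minus control, 19 without control replicate 1 and both near-identical livers, and 18 to 30 with 1 liver left out, the lowest without control replicate 1. In hAAM minus control they were 29, with 18 for only the groups compared, 16 with the replicate block, 16 without control replicate 1 and both near-identical livers, and 13 to 29 with 1 liver left out, the lowest without control replicate 1. All genes called in vehicle minus control were 6719, and 4253 with the replicate block; in hAAM minus control they were 4666, 7340 by library size alone, 2729 with only the groups compared, 2959 with the replicate block, and 2419 (without control replicate 3) to 5456 with 1 liver left out. In hAAM minus vehicle they were 0, 1 with DESeq2 and 0 to 1 with 1 liver left out. The difference in the log2 ratio of Il1rn to Il1b, vehicle minus control, was 1.22, with 0.585 without control replicate 1 and 1.62 without control replicate 2, and became 0.43 without control replicate 1 and both near-identical livers; in hAAM minus control it was 0.614 and 1.65 without the same controls.

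Same-numbered livers of different groups correlated in their deviations between −0.46 (vehicle and hAAM replicate 4) and 0.38 (replicate 3 of the same groups), so the numbers do not pair the livers. With the replicate block, the log2 fold changes in vehicle minus control were 0.0151 for Nlrp3, −0.0248 for Il33 and −0.0186 for Il18r1, each of the other sign.

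By library size alone, signs turned in vehicle minus control for Nlrp3 (0.11), Gsdmd (0.0940), Il18 (0.0492), Il1rn (0.13), Il1f9 (0.23), Peli1 (0.31), Il18bp (0.0875) and Sigirr (0.18), in hAAM minus control for Gsdmd (0.0387), Il33 (0.15) and Il1rn (0.33), and in hAAM minus vehicle for Il1b (−0.0204). Without both near-identical livers Il1rn was 0.18 in hAAM minus control and Il18 0.0351 in hAAM minus vehicle, and with at least 10 counts in every liver Il1rn was 0.00033 in hAAM minus control. Without control replicate 1 and both near-identical livers, Nlrp3 was 1.24, Il33 −0.0599, Il1rn 0.33, Il1f9 1.73 and Casp4 0.14 in vehicle minus control, Nlrp3 1.17, Il1b 0.0042 and Il1rn 0.62 in hAAM minus control, and Il18 0.0354 in hAAM minus vehicle.

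With 1 liver left out, log2 fold changes that turned sign ranged in vehicle minus control from −0.64 to 1.13 for Nlrp3, −0.41 to 0.21 for Il1rn, −0.15 to 0.30 for Il33, −1.06 to 0.0784 for Casp4, −0.62 to 1.61 for Il1f9 and −0.0423 to 0.12 for Nek7. In hAAM minus control they ranged from −0.75 to 1.03 for Nlrp3, −0.27 to 0.42 for Il1rn and −0.34 to 0.11 for Il33. In hAAM minus vehicle they ranged from −0.39 to 0.0712 for Nlrp3, −0.0638 to 0.17 for Casp1, −0.0917 to 0.0442 for Gsdmd, −0.32 to 0.26 for Il1b, −0.21 to 0.10 for Il18 and −0.0475 to 0.44 for Il1rn. The cause of these turns was not tested.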
